A study of Homo sapiens with 12 samples.

Results

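The 10 genes described here were picked by name from the 56269 genes of 1 RNA-seq count table: ADAMTS1, ADAMTS2, ADAMTS3, ADAMTS6, ADAMTS9, ADAMTS10, ADAMTS12 and ADAMTS17, which encode secreted metalloproteases of the extracellular matrix, and ADAMTSL1 and ADAMTSL4, which encode related secreted proteins without a protease domain. All 10 passed the filter on low counts. RNA came from HEYA8, an established ovarian cancer cell line with little betaglycan of its own, and no agent was added to the serum-containing RPMI medium. The 12 libraries fall into 4 groups of 3. S534A and S545A cells expressed betaglycan (the product of TGFBR3, a co-receptor for TGF-β) with a serine-to-alanine change at the glycosaminoglycan site in the name, which leaves the attachment site at the other serine. The study describes the chains on S534A as both kinds with a preference for chondroitin sulfate, and those on S545A as predominantly heparan sulfate. ∆GAG-BG cells expressed betaglycan with both sites changed, and control vector cells carried the vector alone. The betaglycan forms were delivered by lentivirus on top of the cells' own TGFBR3, and the cells were sorted on the dTomato marker of the vector, so each group stands for a sorted population of 1 line. The design text calls the libraries of a group biological replicates.

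ADAMTS proteases carry a zinc-dependent catalytic domain followed by thrombospondin repeats and ancillary domains that bind the matrix. They are made as inactive precursors, many are activated by proprotein convertases, and TIMP3 is an inhibitor of several. ADAMTSL proteins share the ancillary domains but cannot cleave, and several members of both kinds are linked to fibrillin microfibrils.

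The catalytic signature is shown because it is what separates the 2 kinds of member. In the GENCODE release 29 coding sequences, the zinc-binding pattern, 3 histidines and a glutamate spread over 11 codons, was found 1 time in each of the 8 ADAMTS genes and 0 times in ADAMTSL1 and ADAMTSL4. The stretches below are coding-strand DNA, with the codons of the 3 histidines and the glutamate in capitals, and each spans a splice junction after its first 17 bases, so the genomic interval (GRCh38, minus strand) includes an intron.
ADAMTS2 (chr5:179154177-179154830): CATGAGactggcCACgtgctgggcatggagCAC
ADAMTS3 (chr4:72319460-72319874): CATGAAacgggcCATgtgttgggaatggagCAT
ADAMTS6 (chr5:65300116-65329394): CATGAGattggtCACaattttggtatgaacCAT
ADAMTS10 (chr19:8596204-8596323): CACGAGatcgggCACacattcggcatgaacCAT
ADAMTS12 (chr5:33649682-33658200): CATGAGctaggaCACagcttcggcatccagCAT
ADAMTS17 (chr15:100155305-100199334): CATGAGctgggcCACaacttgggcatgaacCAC

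The genes lie on 8 chromosomes, and 3 of them, ADAMTS2 (chr5:179110851-179345430), ADAMTS6 (chr5:65148736-65481920) and ADAMTS12 (chr5:33523535-33892192), lie far apart on chromosome 5. The others are ADAMTS1 (chr21:26835747-26845409), ADAMTS3 (chr4:72280969-72569386), ADAMTS9 (chr3:64515654-64688000), ADAMTS10 (chr19:8580242-8610735), ADAMTS17 (chr15:99971589-100342005), ADAMTSL1 (chr9:17906563-18910950) and ADAMTSL4 (chr1:150549369-150560937). Exons of ADAMTS3, ADAMTS9, ADAMTS17 and ADAMTSL4 overlap exons of a gene on the opposite strand, by 70 bases (ADAMTS3) to 736 bases (ADAMTSL4 with ADAMTSL4-AS1). Whether counting used strand is not stated, so reads in those stretches cannot be assigned with certainty. ADAMTS9-AS1 had 0 to 8 counts and ADAMTSL4-AS1 8 to 34 counts per library.

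Several libraries bear on every value below. Total counts ranged from 16410001 to 29504297, and the level that 3 counts stand for ranged from 0.1001 to 0.182 CPM (counts scaled to the size of the library with TMM factors). TGFBR3 was at 413 to 574 CPM in the 6 single-site mutant libraries, and the other groups were split. In ∆GAG-BG, replicate 1 held 260 CPM whereas replicates 2 and 3 held 20.3 and 21.4. In control vector, replicate 1 held 15.9 CPM whereas replicates 2 and 3 both held 259. Libraries 2 and 3 of ∆GAG-BG and of control vector therefore go against their labels, and groups are named here as labelled. Libraries 2 and 3 of S545A, control vector and ∆GAG-BG differed from each other by little more than counting noise (chi-square per degree of freedom 1.40, 1.43 and 1.95), whereas the other pairs within a group gave 16.5 to 74.8. The p-values may thus partly measure technical spread. On the same measure, pairs from different groups ranged from 3.87 (S534A replicate 1 with S545A replicate 1) to 120 (S534A replicate 2 with ∆GAG-BG replicate 1). Some libraries were therefore closer to a library of another group than to one of their own. Markers of the line were mixed, and 7 of 9 epithelial and Müllerian markers passed the filter. Among them were KRT7 at 746 to 1140 CPM, KRT8 at 688 to 1007, KRT18 at 451 to 675 and PAX8 at 193 to 295. KRT19 had only 3 to 17 counts and EPCAM 11 to 43, while CDH1 and MUC16 had 0 counts in every library. All 4 mesenchymal markers passed the filter, with VIM at 2343 to 3132 CPM, FN1 at 321 to 1412, CDH2 at 115 to 150 and ZEB1 at 94.9 to 144. Blood markers were near 0 (PTPRC at most 2 counts), whereas all 3 endothelial markers passed the filter, with CDH5 at 168 to 431 CPM, VWF at 2.64 to 14.9 CPM and PECAM1 at only 4 to 17 counts. CDH5, VWF, EPCAM, KRT7, KRT18, ZEB1 and FN1 each had their lowest level in S534A replicate 2, as did 25.4% of all genes, while WT1 was highest there. The part of these markers in the results was not tested. In bulk RNA, fewer cells making a transcript and less transcript per cell cannot be told apart.

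The 10 genes covered a wide range of levels. Per kilobase of gene length, the scale used to compare genes, ADAMTS1 had the highest mean level over the 12 libraries at 17.0 CPM per kilobase (range 13.9 to 23.5), followed by ADAMTS6 at 15.7 (9.03 to 17.6), ADAMTSL1 at 8.98 (8.30 to 10.1) and ADAMTS12 at 5.33 (4.46 to 8.64). A gap followed, since ADAMTS12 exceeded ADAMTS3 in every library without overlap. ADAMTS3 was at 1.70 CPM per kilobase, ADAMTS10 at 1.11, ADAMTSL4 at 0.914, ADAMTS9 at 0.447, ADAMTS2 at 0.245 and ADAMTS17 at 0.179. All other neighbours in this order overlapped in range, and ADAMTS1 exceeded ADAMTS6 in 6 of 12 libraries and ADAMTS10 exceeded ADAMTSL4 in 7 of 12, so those orders were not settled.

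Among 26 family genes looked at, 4 of the 5 with the highest level per kilobase were among the 10 described, and the other was THSD4 at 8.25 CPM per kilobase. Of the 16 other family genes 9 passed the filter, with ADAMTSL5 at 1.47, ADAMTS7 at 1.33 and ADAMTS16 at 1.18 CPM per kilobase next in order. The aggrecanase ADAMTS5 was at 0.111 CPM per kilobase, and ADAMTS14 and ADAMTS20 had 0 counts in every library.

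**Figure D1:**
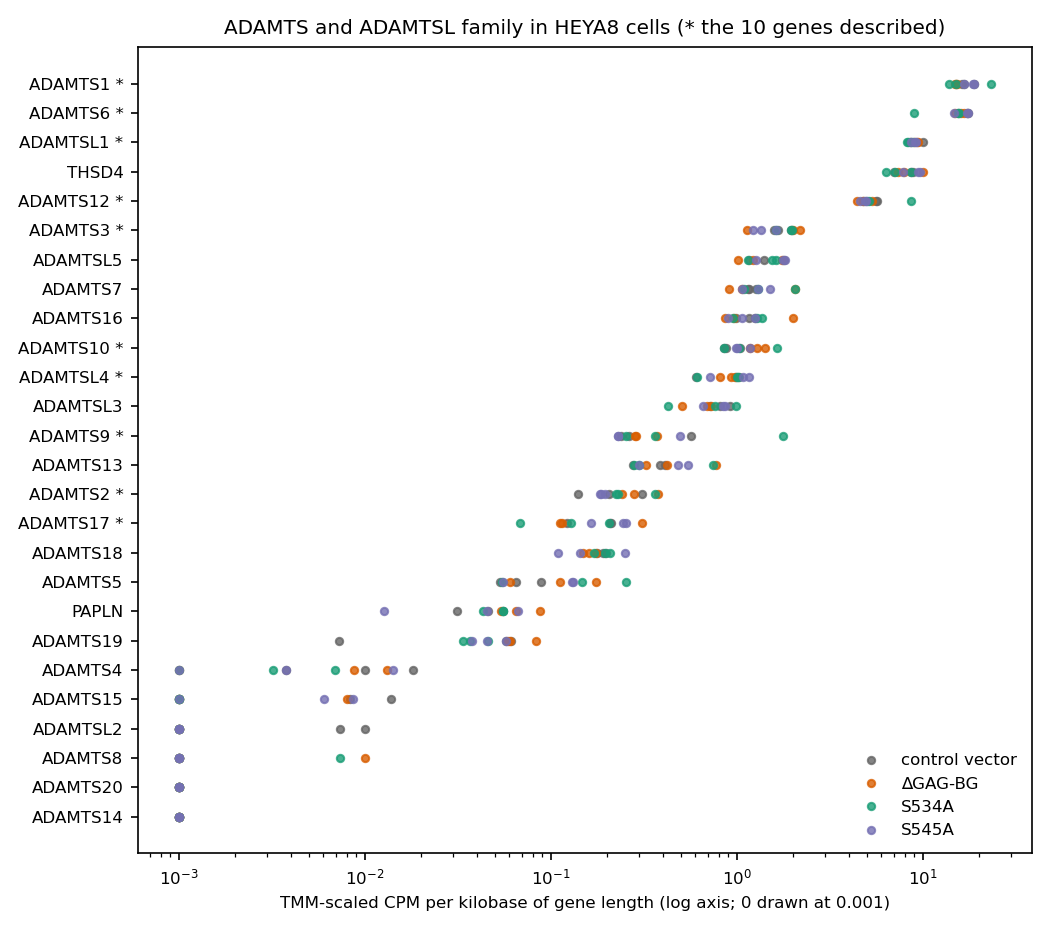
Level of 26 ADAMTS and ADAMTSL family genes in TMM-scaled CPM per kilobase of gene length (log axis, a value of 0 drawn at 0.001), 1 point per library and coloured by group. ADAMTS1, ADAMTS6, ADAMTSL1 and ADAMTS12 sit together near the top with mean levels of 17.0 to 5.33, clear of ADAMTS3 at 1.70.

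The spread of a gene across all 12 libraries also differed. The highest library exceeded the lowest by 1.22-fold for ADAMTSL1, by 1.68-fold for ADAMTS1 and by 1.92- to 1.95-fold for ADAMTSL4, ADAMTS3, ADAMTS10, ADAMTS12 and ADAMTS6. It did so by 2.70-fold for ADAMTS2, 4.48-fold for ADAMTS17 and 7.74-fold for ADAMTS9, against a median of 1.65-fold over all 16069 genes tested. ADAMTS2, ADAMTS9 and ADAMTS17 also had the lowest counts, with minima of 26, 45 and 17 per library, where counting noise is largest relative to the level. The highest ADAMTS9 library, S534A replicate 2, held 568 counts. The part of counting noise in these spreads was not tested.

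ADAMTS1 and ADAMTS9 cleave the large proteoglycan versican. ADAMTS1 was at 98.5, 166 and 107 CPM in S534A replicates 1 to 3, at 119, 132 and 133 in S545A, at 107, 105 and 108 in ∆GAG-BG, and at 133, 115 and 117 in control vector. S534A replicate 2 was the highest of all 12 libraries and S534A replicate 1 the lowest, and the 3 S545A libraries and the 3 control vector libraries all lay above the 3 ∆GAG-BG libraries. ADAMTS9 was at 3.91, 18.95 and 2.73 CPM in S534A, at 5.31, 2.45 and 2.46 in S545A, at 3.99, 3.02 and 3.07 in ∆GAG-BG, and at 6.05, 2.83 and 2.54 in control vector. A single library, S534A replicate 2 with 568 counts, stood above all others, and in the other 3 groups the library numbered 1 was the highest.

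ADAMTS2 and ADAMTS3 remove the amino-terminal propeptide of fibrillar procollagens, and ADAMTS3 also takes part in the activation of the lymphangiogenic factor VEGF-C. ADAMTS2 was at 1.96, 3.17 and 2.00 CPM in S534A, at 1.63, 1.62 and 1.71 in S545A, at 3.31, 2.46 and 2.12 in ∆GAG-BG, and at 2.70, 1.23 and 1.80 in control vector. Its S545A libraries lay close together and below every S534A and ∆GAG-BG library. ADAMTS3 was at 14.0, 11.6 and 14.3 CPM in S534A, at 11.7, 9.70 and 8.78 in S545A, at 8.21, 15.8 and 14.5 in ∆GAG-BG, and at 14.1, 11.4 and 11.98 in control vector. ∆GAG-BG held both the lowest library (replicate 1) and the highest (replicate 2), so that it overlapped every other group.

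ADAMTS6 and ADAMTS10 are close relatives, and ADAMTS10, ADAMTS17 and ADAMTSL4 are known from inherited eye and connective-tissue disorders of fibrillin microfibrils. ADAMTS6 was at 134, 77.3 and 135 CPM in S534A, at 127, 149 and 150 in S545A, at 128, 138 and 144 in ∆GAG-BG, and at 134, 148 and 151 in control vector. All libraries but S534A replicate 2 lay between 127 and 151 CPM. ADAMTS10 was at 5.87, 9.41 and 4.85 CPM in S534A, at 6.74, 5.63 and 5.71 in S545A, at 8.12, 7.34 and 6.73 in ∆GAG-BG, and at 5.95, 4.85 and 5.01 in control vector. S534A replicate 2 was again apart from its group, here as the highest library, and all ∆GAG-BG libraries lay above all control vector libraries.

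ADAMTS17 was at 1.07, 0.57 and 1.70 CPM in S534A, at 1.36, 2.01 and 2.08 in S545A, at 2.54, 0.93 and 0.95 in ∆GAG-BG, and at 1.00, 1.74 and 1.72 in control vector. ∆GAG-BG replicate 1 was the highest library and S534A replicate 2 the lowest, on 17 to 61 counts. ADAMTSL4 was at 3.95, 6.44 and 6.55 CPM in S534A, at 4.61, 7.50 and 7.005 in S545A, at 5.22, 6.32 and 6.01 in ∆GAG-BG, and at 3.91, 6.65 and 6.42 in control vector. In each of the 4 groups the library numbered 1 was the lowest, and the 4 groups overlapped each other.

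ADAMTS12 cleaves the cartilage matrix protein COMP, and ADAMTSL1, also called punctin, is a matrix protein whose function is less well known. ADAMTS12 was at 49.0, 84.5 and 50.2 CPM in S534A, at 48.3, 48.0 and 45.1 in S545A, at 52.2, 43.6 and 46.6 in ∆GAG-BG, and at 46.5, 55.2 and 55.7 in control vector. S534A replicate 2 alone exceeded 56 CPM. ADAMTSL1 was at 113, 115 and 121 CPM in S534A, at 119, 126 and 124 in S545A, at 128, 123 and 129 in ∆GAG-BG, and at 138, 117 and 119 in control vector. It was the steadiest of the 10, with every S534A library below every ∆GAG-BG library.

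**Figure D2:**
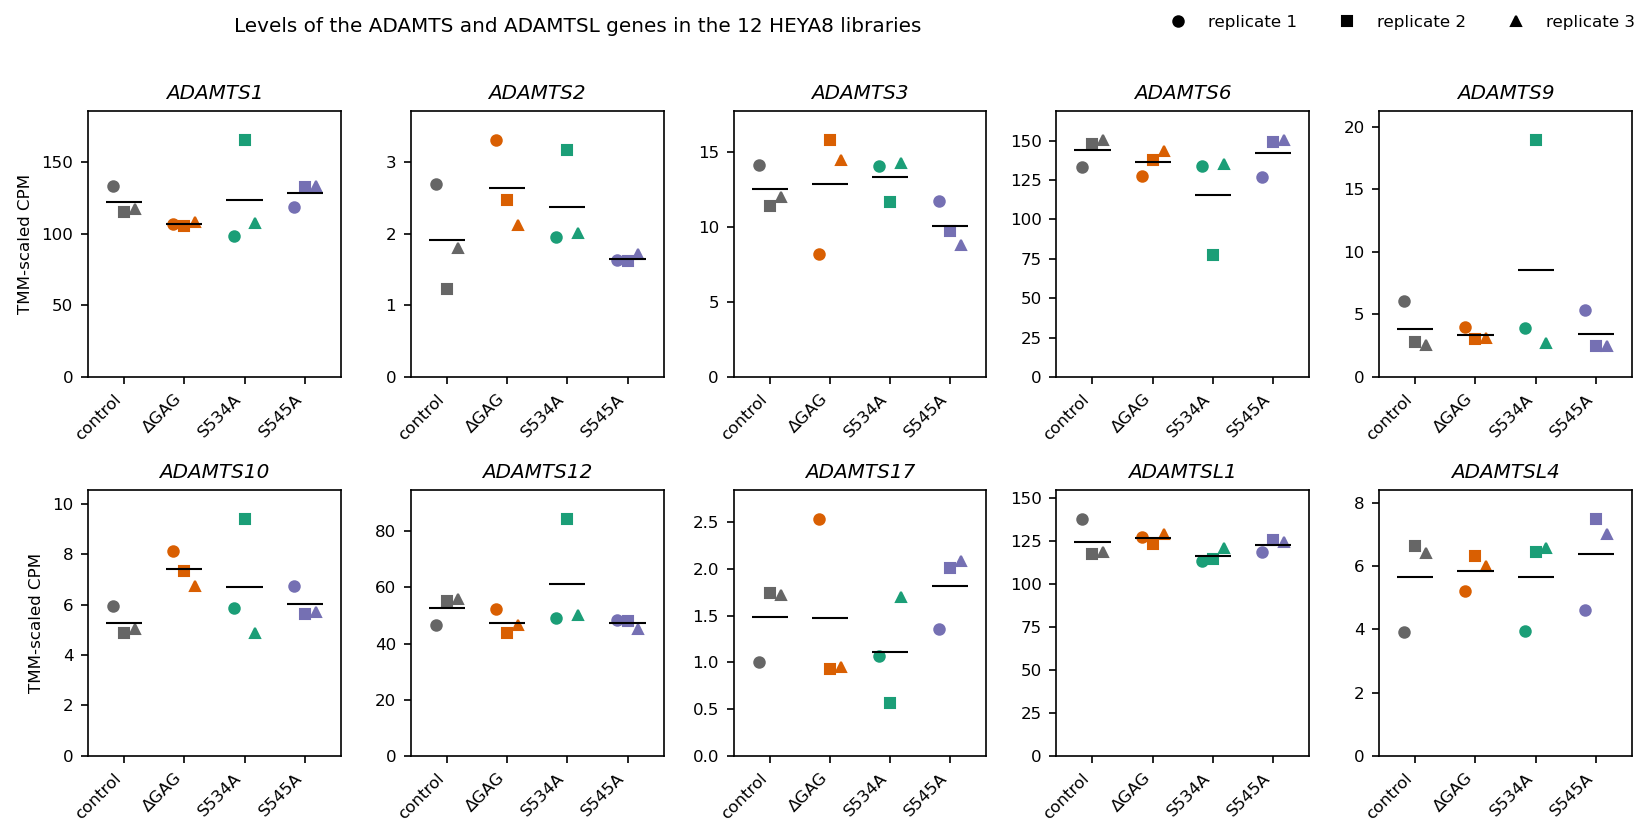
TMM-scaled CPM of the 10 genes (1 panel each, axis from 0) in the 4 groups, with 1 symbol shape per replicate number and a bar at the group mean. S534A replicate 2 (square) stands apart for ADAMTS9 (18.95 CPM), ADAMTS12 (84.5 CPM), ADAMTS1 (166 CPM) and ADAMTS6 (77.3 CPM), and ∆GAG-BG replicate 1 (circle) for ADAMTS17 (2.54 CPM) and ADAMTS3 (8.21 CPM).

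S534A replicate 2 stood apart from the other libraries of its group for most members. Against the mean of the other 2 S534A libraries it was 5.71-fold for ADAMTS9, 1.76-fold for ADAMTS10, 1.70-fold for ADAMTS12, 1.61-fold for ADAMTS1 and 1.60-fold for ADAMTS2, and it was 0.575-fold for ADAMTS6 and 0.410-fold for ADAMTS17. Thus 7 of 10 members were off by 1.5-fold or more, 5 higher and 2 lower, whereas 22.0% of all genes were off by that much in this library, 9.52% higher and 12.5% lower. Because the 10 were chosen with earlier results of these data known, this share is not a test of the family. ADAMTSL4 at 1.23-fold, ADAMTSL1 at 0.980-fold and ADAMTS3 at 0.823-fold lay within 1.5-fold. By the coarser measure of which library was the extreme of the 12, S534A replicate 2 was the highest for 4 members (26.1% of all genes) and the lowest for 2 (25.4%). Together that is 6 of 10 against 51.5% of all genes, which is near the background.

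∆GAG-BG replicate 1 was apart for fewer members. It was 2.71-fold the mean of the other 2 ∆GAG-BG libraries for ADAMTS17 and 0.543-fold for ADAMTS3, and between 0.846- and 1.44-fold for the other 8. So 2 of 10 were off by 1.5-fold or more (18.8% of all genes), 1 higher (8.36%) and 1 lower (10.5%), a share close to the background. It was the highest library for ADAMTS2 and ADAMTS17 (16.3% of all genes) and the lowest for ADAMTS3 (16.0%), 3 of 10 together against 32.2%. The libraries numbered 1 of the other groups showed their own pattern: control vector replicate 1 was off by 1.5-fold or more for 4 of 10 members (11.9% of all genes), higher for ADAMTS9 (2.25-fold) and ADAMTS2 (1.78-fold) and lower for ADAMTS17 (0.579-fold) and ADAMTSL4 (0.598-fold). S545A replicate 1 was off for 2 of 10 (12.2%), ADAMTS9 at 2.16-fold and ADAMTSL4 at 0.636-fold.

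**Figure D3:**
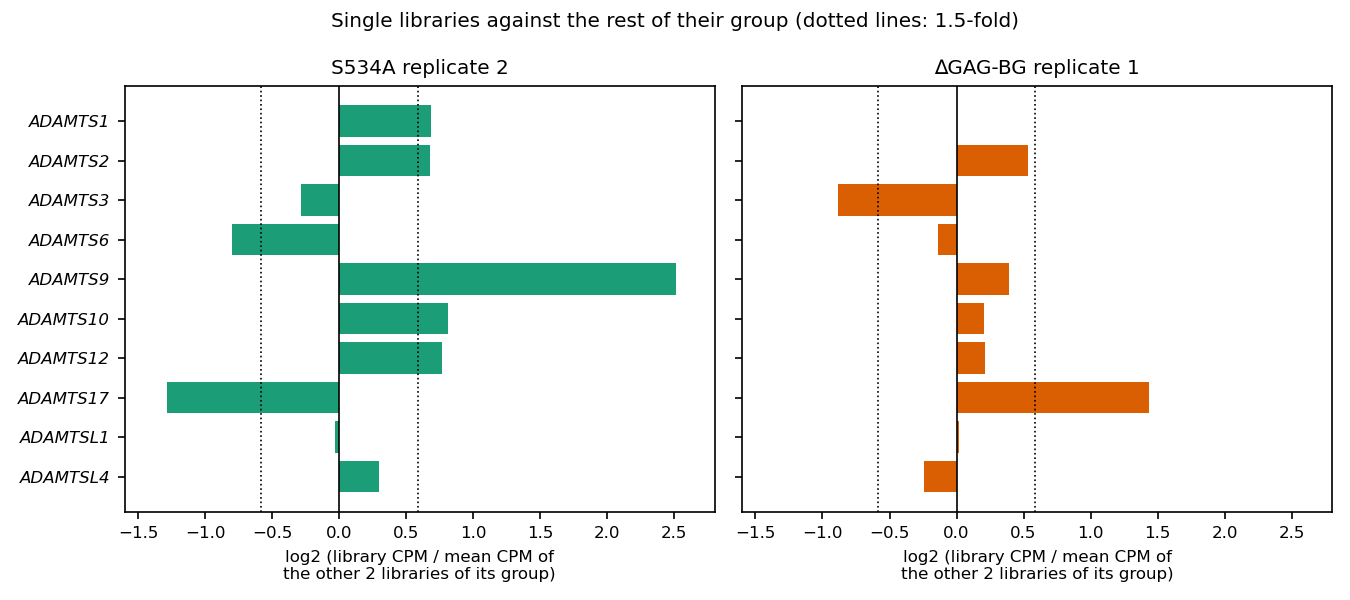
Log2 ratio of S534A replicate 2 (left) and ∆GAG-BG replicate 1 (right) to the mean CPM of the other 2 libraries of the same group, for the 10 genes, with dotted lines at 1.5-fold. In S534A replicate 2, 7 bars pass a dotted line, and in ∆GAG-BG replicate 1 only those of ADAMTS17 (2.71-fold) and ADAMTS3 (0.543-fold) do.

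The study compared betaglycan with a single attachment site against betaglycan without chains in search of genes that could regulate its shedding. No member, and none of the 16069 genes tested (0%), had an adjusted p under 0.05 in any of the 6 group comparisons by edgeR's quasi-likelihood test with Benjamini-Hochberg adjustment. DESeq2 on the same libraries called 0 to 5 genes per comparison, no member among them. The members' adjusted p-values lay between 0.702 and 1.00. Counts of members under an unadjusted 0.05 by edgeR are therefore read below against the share of all genes under it, which is the meaning of "under 0.05" from here on. An exact permutation test on 3 against 3 libraries cannot go below 0.1. Comparisons that share a group share its libraries.

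In S534A against ∆GAG-BG, ADAMTS9 differed by a log2 fold change of 1.37 (SE 0.645), ADAMTS17 by -0.47 (SE 0.462), ADAMTS12 by 0.37 (SE 0.179), ADAMTS1 by 0.22 (SE 0.158) and ADAMTS6 by -0.24 (SE 0.173), each with an adjusted p = 0.890 by edgeR. Thus 0 of 10 members were under 0.05, against 2.99% of all genes, and ADAMTSL1 alone did not overlap between the groups (lower in S534A, 5.66% of all genes). The values of ADAMTS12, ADAMTS1, ADAMTS6 and ADAMTS9, which the study lists for this comparison, rested on S534A replicate 2. The value of ADAMTS17 moved with that library and also with ∆GAG-BG replicate 1. Without S534A replicate 2, ADAMTS9 was at 0.0059 (SE 0.437), ADAMTS17 at -0.13 (SE 0.467), ADAMTS12 at 0.067 (SE 0.101), ADAMTS6 at -0.017 (SE 0.0929), and ADAMTS1 turned to -0.050 (SE 0.0876). ADAMTS10, which differed by -0.13 with all libraries (SE 0.212), then differed by -0.45 (SE 0.159, adjusted p = 0.999 by edgeR) and was the only member under 0.05, against 1.92% of all genes. Without ∆GAG-BG replicate 1, ADAMTS17 turned to 0.18 (SE 0.437). ADAMTS12 was then at 0.45 (SE 0.203, adjusted p = 0.891 by edgeR) and was under 0.05, 1 of 10 members against 3.99% of all genes.

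S545A against ∆GAG-BG placed ADAMTS2 under the threshold. Its log2 fold change was -0.67 (SE 0.296, adjusted p = 1.00 by edgeR), which made it 1 of 10 members against 1.10% of all genes. ADAMTS2 (lower) and ADAMTS1 (higher, log2 fold change 0.26, SE 0.158) did not overlap between the groups, 2 of 10 against 5.05% of all genes, and each had an exact permutation p of 0.1, the smallest possible. With the replicate number as a block ADAMTS2 was at -0.65 (SE 0.303) and without ∆GAG-BG replicate 1 at -0.46 (SE 0.321), and it was no longer under 0.05 in either. ADAMTS17 and ADAMTS3, both on the list of genes that the study drew up from these libraries, were at 0.30 (SE 0.438) and -0.35 (SE 0.213).

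∆GAG-BG replicate 1 decided the size of those last values. Without it, ADAMTS17 differed by 0.95 (SE 0.419, adjusted p = 0.890 by edgeR) and ADAMTS3 by -0.58 (SE 0.153, adjusted p = 0.731). Both genes were then under 0.05, 2 of 10 members against 5.55% of all genes, and close to the log2 fold changes that the study lists. With ∆GAG-BG replicates 2 and 3 and control vector replicates 2 and 3 left out in its place, because TGFBR3 went against their labels, the direction turned: ADAMTS17 was at -0.49 (SE 0.507) and ADAMTS3 at 0.29 (SE 0.227). ∆GAG-BG and control vector then hold a single library each, assumed to vary like the other groups. In that setting ADAMTS2 remained lower in S545A (log2 fold change -1.00, SE 0.326, adjusted p = 0.830 by edgeR) and under 0.05, 1 of 10 members against 5.36% of all genes, and in S534A against ∆GAG-BG 2 of 10 members were under 0.05 (ADAMTS3 higher and ADAMTS17 lower in S534A), against 11.1%.

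**Figure D4:**
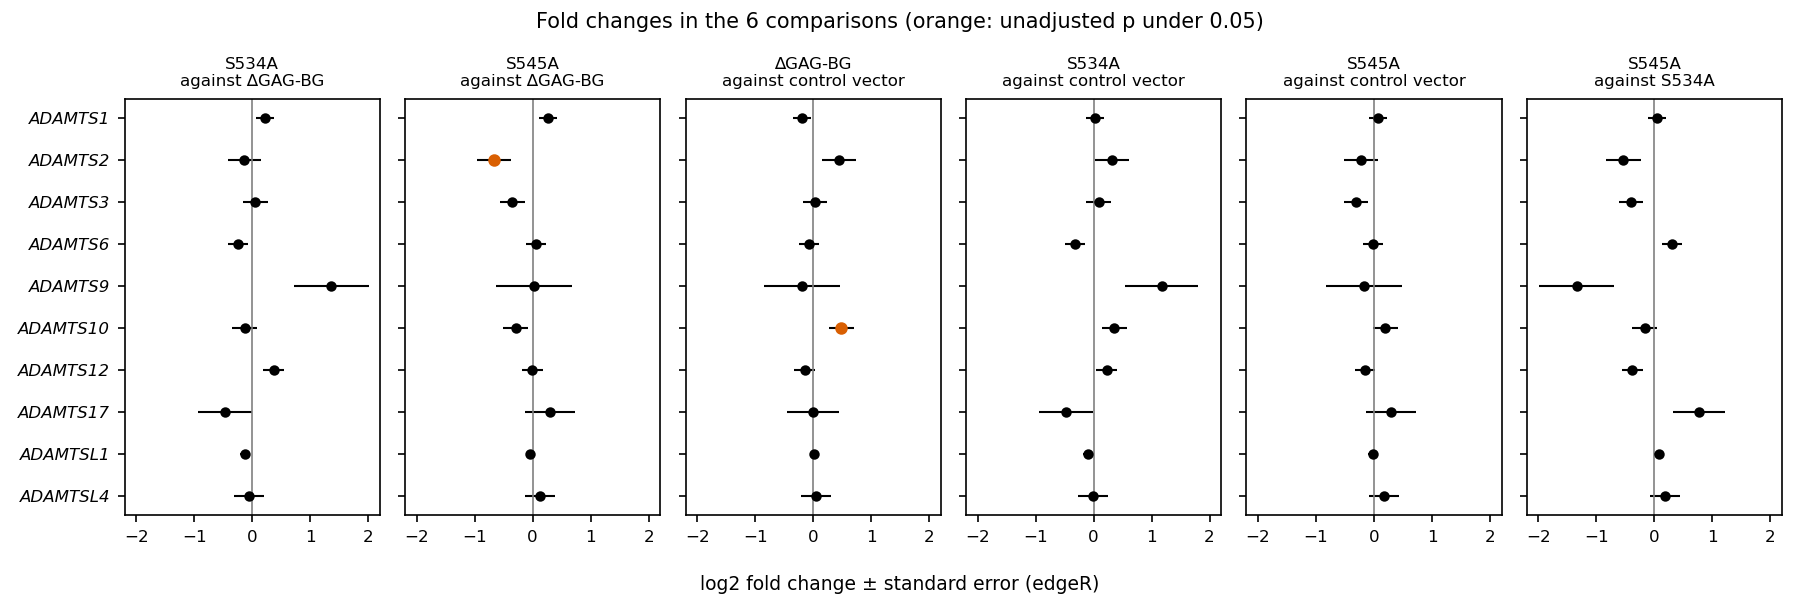
Log2 fold change with its standard error (edgeR) of the 10 genes in the 6 comparisons, 1 panel each, with orange points where the unadjusted p was under 0.05. Only ADAMTS2 in S545A against ∆GAG-BG (-0.67) and ADAMTS10 in ∆GAG-BG against control vector (0.49) are orange.

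In ∆GAG-BG against control vector, ADAMTS10 was higher by a log2 fold change of 0.49 (SE 0.214, adjusted p = 1.00 by edgeR), the only member of 10 under 0.05, against 0.871% of all genes. ADAMTS10 (higher) and ADAMTS1 (lower) did not overlap between these groups, 2 of 10 against 4.87%. Without ∆GAG-BG replicate 1 ADAMTS10 was at 0.40 (SE 0.241) and 0 of 10 members were under 0.05, against 2.49% of all genes. Without libraries 2 and 3 of both groups ADAMTS10 was at 0.43 (SE 0.429) and only ADAMTS3 (lower in ∆GAG-BG) was under 0.05, against 9.07%.

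The single-site mutants against control vector gave 0 of 10 members under 0.05 for S534A (3.45% of all genes) and 0 of 10 for S545A (1.05%). No member was free of overlap in either, against 7.65% and 8.82% of all genes. Without S534A replicate 2, ADAMTS1 was lower in S534A than in control vector by a log2 fold change of -0.25 (SE 0.0879, adjusted p = 1.00 by edgeR), compared with 0.023 with all libraries, and was 1 of 10 against 1.27% of all genes. Without libraries 2 and 3 of ∆GAG-BG and control vector, 0 of 10 members were under 0.05 for S534A (1.89%) and 1 for S545A (ADAMTS3, lower, 3.49%).

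S545A against S534A compares the single-site mutants directly, and neither group holds a library whose TGFBR3 goes against its label. Its standard errors and p-values still draw on a spread fitted over all 12 libraries. No member of 10 was under 0.05, against 4.78% of all genes. ADAMTS9 was at a log2 fold change of -1.34 (SE 0.640), ADAMTS17 at 0.77 (SE 0.451), ADAMTS2 at -0.53 (SE 0.296), ADAMTS3 at -0.40 (SE 0.213), ADAMTS12 at -0.38 (SE 0.178) and ADAMTS6 at 0.30 (SE 0.173). ADAMTS2 and ADAMTS12 were lower in S545A without overlap, 2 of 10 against 10.1% of all genes. Without S534A replicate 2, ADAMTS9 turned to 0.022 (SE 0.436), ADAMTS17 was at 0.43 (SE 0.456), ADAMTS2 at -0.26 (SE 0.307), ADAMTS3 at -0.49 (SE 0.233), ADAMTS12 at -0.071 (SE 0.101) and ADAMTS6 at 0.082 (SE 0.0930), whereas ADAMTS1 went from 0.048 to 0.32 (SE 0.0880, adjusted p = 1.00 by edgeR) and became the only member under 0.05, against 1.76% of all genes. In the 2 remaining S534A libraries ADAMTS1 was at 98.5 and 107 CPM, below all 3 S545A libraries.

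**Figure D5:**
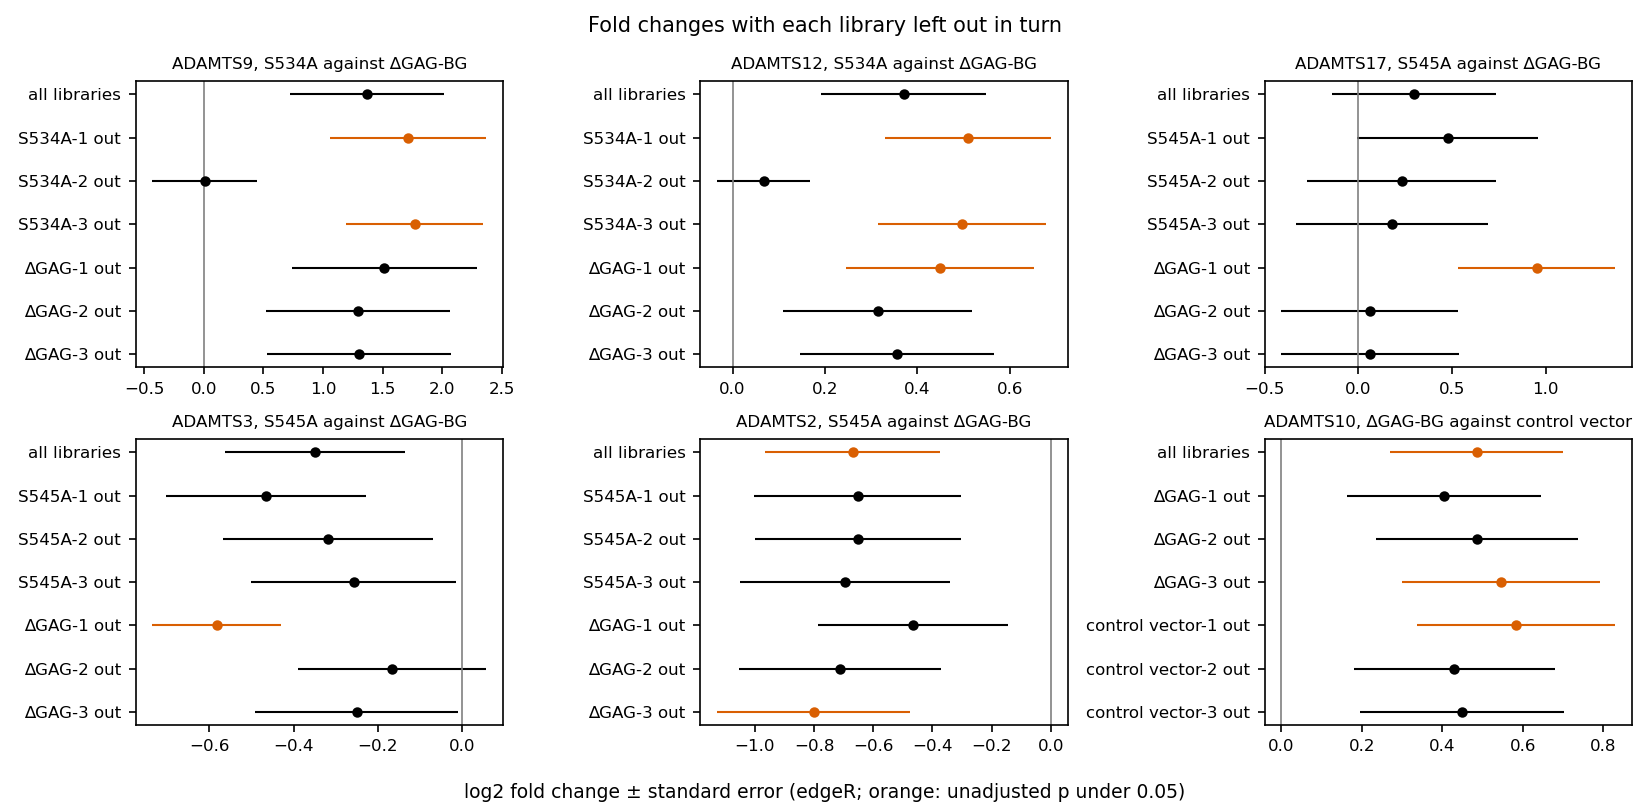
Log2 fold change with its standard error (edgeR) for 6 pairs of gene and comparison, with all libraries and with each library left out in turn, orange where the unadjusted p was under 0.05. ADAMTS9 falls from 1.37 to 0.0059 and ADAMTS12 from 0.37 to 0.067 without S534A replicate 2, and ADAMTS17 goes from 0.30 to 0.95 and ADAMTS3 from -0.35 to -0.58 without ∆GAG-BG replicate 1.

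The members did not shift as a group. Relative to ∆GAG-BG, the median log2 fold change of the 10 was -0.09 for S534A and 0.0075 for S545A. Relative to control vector it was 0.0082 for ∆GAG-BG, 0.056 for S534A and -0.020 for S545A, and between the single-site mutants (S545A over S534A) it was -0.059. Over all genes tested the medians lay between -0.0066 and 0.0078. Of the 9 other family genes tested, 0 had an unadjusted p under 0.05 in any of the 6 comparisons.

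Among 13 tested genes that inhibit, process or clear these proteases, TIMP3 and B3GLCT, which adds glucose to the sugar on thrombospondin repeats, were the only ones under an unadjusted 0.05, and neither passed the adjusted threshold. That made 2 of 13 for S534A over ∆GAG-BG (2.99% of all genes), 2 for S534A over control vector (3.45%) and 2 between the single-site mutants (4.78%). It made 1 for ∆GAG-BG over control vector (0.871%), and 0 where S545A was set against ∆GAG-BG or control vector. TIMP3, the inhibitor that the title of the data series names, was at 25.3, 15.2 and 26.4 CPM in S534A, at 30.1, 35.7 and 39.9 in S545A, at 35.5, 51.8 and 50.4 in ∆GAG-BG, and at 38.1, 30.2 and 27.1 in control vector. S534A lay below every other group without overlap, S534A replicate 2 being the lowest library. The margin to control vector was narrow, 26.4 against 27.1 CPM. Of all genes, 5.66% did not overlap between S534A and ∆GAG-BG, 7.65% between S534A and control vector, and 10.1% between the single-site mutants. In ∆GAG-BG and control vector, replicates 2 and 3 are the libraries whose TGFBR3 went against their labels. TIMP3 was highest in replicates 2 and 3 of ∆GAG-BG, whereas ∆GAG-BG replicate 1, at 35.5 CPM, lay below control vector replicate 1, at 38.1 CPM. The log2 fold change of TIMP3 was -1.05 (SE 0.219) in S534A against ∆GAG-BG, with an adjusted p = 0.890 by edgeR. It was 0.67 (SE 0.218) for S545A over S534A, 0.53 (SE 0.216) for ∆GAG-BG over control vector and -0.52 (SE 0.218) for S534A over control vector, each under 0.05. It was -0.38 (SE 0.215) for S545A over ∆GAG-BG and 0.15 (SE 0.215) for S545A over control vector, both with overlapping groups and not under 0.05. B3GLCT had log2 fold changes of 0.33 to 0.34 for S534A over each other group, and its highest library was S534A replicate 2 at 24.9 CPM.

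Among 14 tested substrates and cofactors, 2 were lower in S534A than in ∆GAG-BG at an unadjusted p under 0.05, FN1 (fibronectin, log2 fold change -1.33) and LTBP1 (a microfibril protein that binds latent TGF-β, -0.76), against 1.65% of all genes, and 0 were higher. In S545A against ∆GAG-BG 3 were lower, FN1 (-0.94), LTBP1 (-0.88) and COL1A1 (a chain of type I collagen, -0.63), against 0.604% of all genes, and 0 were higher. None passed the adjusted threshold by edgeR. Both FN1 (1412 CPM) and LTBP1 (29.3 CPM) had their highest level in ∆GAG-BG replicate 1, the library that was also apart for ADAMTS17 and ADAMTS3. For both genes every ∆GAG-BG library lay above every S534A library (no overlap, 5.66% of all genes) and every S545A library (5.05%). COL1A1 overlapped with ∆GAG-BG in S534A and in S545A, and its highest library was ∆GAG-BG replicate 3 at 17.7 CPM. In the other comparisons COL3A1, a chain of type III collagen, was the only one of these genes under 0.05, lower in S534A (1.26% of all genes) and in S545A (0.355%) than in control vector. It had 0 to 3 counts in the 6 single-site mutant libraries and 0, 22 and 31 counts in control vector replicates 1 to 3, so the groups overlapped. Control vector replicates 2 and 3 are libraries whose TGFBR3 went against their label. The mean of COL3A1 was 0.166 CPM (SD 0.288) in ∆GAG-BG and 0.750 CPM (SD 0.656) in control vector. VCAN, which encodes versican, the substrate of ADAMTS1 and ADAMTS9, differed by -0.03 (SE 0.414) between S534A and ∆GAG-BG and by -0.30 (SE 0.415) between S545A and ∆GAG-BG.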

How the data were processed

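Total RNA of 12 HEYA8 libraries was prepared with a directional kit. Per the labels' processing notes the authors used FastQC, Trim Galore 0.4.5, STAR 2.4, SAMtools 1.2 and featureCounts and deposited raw counts per gene. The notes name a mouse build, mm10 (GRCm38), whereas of 36113 symbols shared with GENCODE release 29 on GRCh38, 33622 had the same chromosome, start and end in the table. GRCh38 is used here. Alignment settings and the strand setting are not given in the sources used here.

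Counts were analysed in R 4.3.3 with edgeR 4.0.16: filterByExpr (minimum count 10), TMM factors, 1 model of 4 groups, robust quasi-likelihood tests and Benjamini-Hochberg adjustment over 16069 genes, with a biological coefficient of variation of 0.163. limma 3.58.1 and DESeq2 1.42.0 were alternatives. CPM is scaled by TMM. The fitting steps were tested on simulated data. The library titled S545S-3 is grouped as S545A by its genotype label.

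The 10 genes and the lists were chosen with earlier results of these data known. Every member is named. Fold changes are given for pairs under an unadjusted 0.05, for pairs the study lists, and for further pairs chosen after their values were seen: ADAMTS1, ADAMTS6, ADAMTS10, ADAMTS12 and ADAMTS17 in S534A against ∆GAG-BG, all but ADAMTS10, ADAMTSL1 and ADAMTSL4 in S545A against S534A, and ADAMTS1 in S545A against ∆GAG-BG and in S534A against control vector. Floors cover counting error only, whereas the standard errors by edgeR also draw on the spread fitted between libraries. Replicate numbers were checked as pairs by the deviations of same-numbered libraries from their group means. These correlated at 0.73, 0.48 and 0.48 between S545A and control vector. Every other comparison had at least 1 number under 0.1, so only the former was read as paired. Its values are not separate evidence, since libraries 2 and 3 of both groups were near duplicates. With the replicate number as a block, that comparison again had 0 of 10 members under an unadjusted 0.05, against 1.23% of all genes.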

Additional observations from a re-analysis of the deposited data

How the results depend on the processing

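Under the 23 planned settings and 1 chosen after seeing the data, 0 members had an adjusted p under 0.05 in every comparison fitted. The count of members with an unadjusted p under 0.05 moved as follows. In S534A against ∆GAG-BG it was 0, and 2 with library size only, 1 with no filter on low counts, 1 with S534A-2 and ∆GAG-1 both left out, 2 without libraries 2 and 3 of ∆GAG-BG and control vector (the setting chosen after seeing the data), and 0 to 3 with each library left out in turn. In S545A against ∆GAG-BG it was 1, and 0 with limma-voom, 0 with the replicate block, 2 with only the groups compared, 3 with both named libraries left out, 0 with libraries 2 and 3 summed, and 0 to 2 with each left out in turn. In ∆GAG-BG against control vector it was 1, and 2, 3 and 0 with only the groups compared, both left out and libraries summed, and 0 to 2 with each left out. In S534A against control vector it was 0, and 1 with both left out and 0 to 3 with each left out. In S545A against S534A it was 0, and 2 with no filter, 1 with DESeq2, 1 with only the groups compared, 2 with both left out and 0 to 4 with each left out. In S545A against control vector it was 0, and 1 without libraries 2 and 3 of ∆GAG-BG and control vector. The replicate block changed no other count. The cause of these moves was not tested.

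Directions turned for log2 fold changes as follows. ADAMTS1 in S534A against ∆GAG-BG went from 0.22 to -0.052 with both named libraries left out, and ranged from -0.050 to 0.36 with each left out in turn. ADAMTS9 in S545A against S534A went from -1.34 to 0.017 with both left out, and ranged from -1.81 to 0.022 with each left out. ADAMTS1 in S534A against control vector went from 0.023 to -0.25 with both left out, -0.013 with limma-voom, -0.019 with libraries 2 and 3 summed and -0.12 without libraries 2 and 3 of ∆GAG-BG and control vector, and ranged from -0.25 to 0.16 with each left out. ADAMTS1 in S545A against S534A ranged from -0.086 to 0.32 and ADAMTS10 in S534A against ∆GAG-BG from -0.45 to 0.051 with each left out. ADAMTS17 and ADAMTS3 in S545A against ∆GAG-BG turned to -0.49 and 0.29 without libraries 2 and 3 of ∆GAG-BG and control vector. ADAMTS17 in S534A against ∆GAG-BG went from -0.47 to 0.51 with both named libraries left out, and ranged from -0.85 to 0.18 with each left out. By CPM without length, ADAMTS6, ADAMTSL1 and ADAMTS1 ranked 1, 2 and 3, and the other members kept their rank. ADAMTS17, with 17 to 61 counts, and ADAMTS2, with 26 to 95, are limited most by depth.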
